A study of Mus musculus with 48 samples.

Results

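The transcripts described here are 9 genes that mark B cells, namely Cd79a, Cd79b, Cd22, Ms4a1, Cr2, Fcer2a, Fcmr, Blk and Pax5, in RNA from the mouse thoracic aorta. They were chosen by name and make up 9 of the 18782 genes in the deposited table, and all 9 are listed there. The libraries came from 48 C57BL/6J wild-type mice of both sexes, with 1 library for each mouse. Mice of the groups NonAD and AAD drank water containing 0.4% β-aminopropionitrile (BAPN), an inhibitor of lysyl oxidase, which links collagen and elastin fibres, for 28 days from the age of 3 weeks, and mice of the groups Con drank normal water. NonAD mice had no visible lesion at the end of that time, and AAD mice had a dissection or an aneurysm. There were 10 MaCon, 4 MaNonAD and 7 MaAAD libraries from males and 10 FeCon, 8 FeNonAD and 9 FeAAD libraries from females, and libraries are named below by their group and number. Only mice that survived to the end were sampled, the lesioned stretch was taken where there was one, and the vessels had been flushed with saline through the left ventricle. Control and BAPN mice, and males and females, were kept in separate cages, so that cage cannot be told apart from treatment or sex.

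B cells recognise antigen through a membrane immunoglobulin that signals by way of a pair of attached proteins, Cd79a (Igα) and Cd79b (Igβ). Kinases of the Src family, Blk among them, pass the signal on, Cd22 dampens it, and the complement receptor Cr2 strengthens it. Pax5 is the transcription factor that commits a cell to the B lineage and keeps it there. In a healthy artery B cells are few and lie mostly in the outer coat and the fat around it, and they can gather there when the wall is inflamed.

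Library totals ranged from 13548003 to 17281262 counts. Values are given as CPM, counts relative to the library's total and scaled with TMM factors, so that 1 CPM was between 13.43 and 17.19 counts and 3 counts lay between 0.175 and 0.223 CPM. The smooth muscle list, which defines the tissue, summed to between 13300 and 68700 CPM in every library. A few libraries stood apart in other cell types. MaCon2 had a summed T cell list of 214 CPM against a MaCon median of 16.4, FeAAD2 had a summed red blood cell list of 26900 CPM against a FeAAD median of 641, and MaNonAD4 had 5180 CPM of the same list against a MaNonAD median of 1460. The settings that leave out any library for the lists, or these 3 libraries together, were chosen after the data were seen.

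These transcripts were scarce. Per kilobase of the longest transcript and over all libraries, the receptor pair led with 0.884 CPM for Cd79b and 0.87 CPM for Cd79a. Fcmr followed with 0.325, Cd22 with 0.222, Blk with 0.205, Fcer2a with 0.167, Ms4a1 with 0.143 and Pax5 with 0.0567 CPM per kilobase. Cr2 came last at 0.0172 CPM per kilobase. The order of Cd79a and Cd79b turned over between groups, since Cd79a was at 2.27 and Cd79b at 1.68 CPM per kilobase in MaNonAD, while in MaAAD they were at 1.05 and 1.44, with differences smaller than the larger of the SDs. A single library held between 9 and 454 counts of all 9 genes together.

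**Figure D1:**
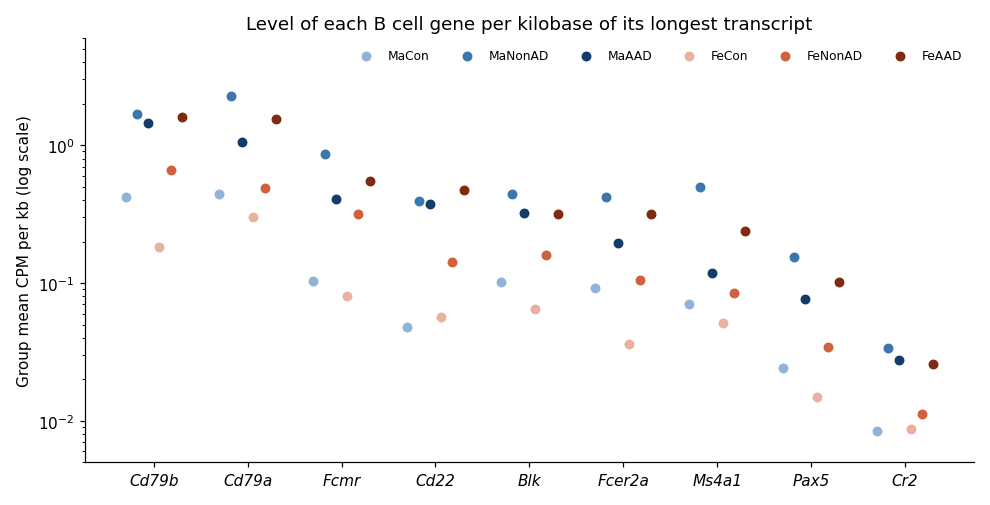
Mean level of each gene in each of the 6 groups, in CPM per kilobase of its longest transcript on a log axis, with genes ordered by their mean over all libraries. Every gene has its lowest point in a control group, and every gene except Cd22 has its highest point in MaNonAD.

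The 9 genes are spread over 7 chromosomes. In the GENCODE M21 annotation of GRCm38, Cd79a lies on chr7:24897381-24902197 with 5 exons in its longest transcript, Cd22 on chr7:30865402-30880342 with 14, Cd79b on chr11:106311341-106314762 with 6, Ms4a1 on chr19:11249675-11266241 with 7, Cr2 on chr1:195136811-195176716 with 19 and Fcmr on chr1:130865669-130880791 with 8. Fcer2a lies on chr8:3681737-3694175 with 12 exons, Blk on chr14:63372836-63417037 with 13 and Pax5 on chr4:44524757-44710487 with 10. The deposited counts were made on GRCm39, and these coordinates serve only to place the genes.

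Because the genes moved together across the libraries, their promoters were read for 3 short motifs of factors known from B cells. RefSeq promoters of GRCm38.p6, from 250 bases before to 50 bases after the start, were at hand for 6 of the 9 genes, with 3 of them for Fcer2a and 8 in all. The promoters with a match in Cd79a (chr7:24897247-24897546, plus strand), Cd22 (chr7:30878979-30879278, minus strand) and Fcmr (chr1:130865527-130865826, plus strand) are shown 5′ to 3′, with the matched letters in capitals.
Cd79a: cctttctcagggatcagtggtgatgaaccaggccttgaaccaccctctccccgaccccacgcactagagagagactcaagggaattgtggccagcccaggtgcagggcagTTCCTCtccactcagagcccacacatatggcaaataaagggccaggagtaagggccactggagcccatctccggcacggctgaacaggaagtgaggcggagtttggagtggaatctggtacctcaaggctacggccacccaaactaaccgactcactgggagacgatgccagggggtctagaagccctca
Cd22: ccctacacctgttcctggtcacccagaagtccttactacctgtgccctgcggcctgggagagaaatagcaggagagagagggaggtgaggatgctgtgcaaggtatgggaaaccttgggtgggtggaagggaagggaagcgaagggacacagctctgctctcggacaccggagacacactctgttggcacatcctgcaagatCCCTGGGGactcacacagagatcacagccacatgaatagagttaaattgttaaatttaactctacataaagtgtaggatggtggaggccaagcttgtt
Fcmr: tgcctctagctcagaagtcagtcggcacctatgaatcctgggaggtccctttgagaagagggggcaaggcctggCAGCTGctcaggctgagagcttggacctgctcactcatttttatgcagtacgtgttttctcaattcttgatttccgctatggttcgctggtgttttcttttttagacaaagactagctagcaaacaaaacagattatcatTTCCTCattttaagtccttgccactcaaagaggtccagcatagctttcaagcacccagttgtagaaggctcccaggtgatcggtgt

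Both strands were searched. The capitals in Cd79a, 140 bases before the start, are the PU.1-type motif GAGGAA read from the other strand, and the same motif lies 36 bases before the start in Fcmr. An E-box, CAGCTG, lies 176 bases before the start in Fcmr and 30 bases before a start of Fcer2a, and the EBF-type motif CCCNNGGG lies 48 bases before the start in Cd22. Of all 32851 promoters, 28.3% held GAGGAA, 16.3% CAGCTG and 13.7% CCCNNGGG, against 2, 2 and 1 of the 8 promoters of these genes. A match is a run of letters and not a measured binding site, and Cr2 and Pax5 had none in this window.

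Across the 6 groups the summed level of the 9 genes was highest in MaNonAD. It was 13.6 ± 6.54 CPM (SD, n = 4) in MaNonAD, 10.4 ± 7.69 (n = 9) in FeAAD and 8.05 ± 3.62 (n = 7) in MaAAD. It was 3.95 ± 2.6 CPM (n = 8) in FeNonAD, 2.5 ± 1.57 (n = 10) in MaCon and 1.61 ± 0.499 (n = 10) in FeCon. Neighbours in this order overlapped in their libraries in every case, so the order of neighbours is not larger than the spread between mice. MaNonAD had the highest mean for 8 of the 9 genes and FeAAD for the remaining one, Cd22. FeCon had the lowest mean for 7 and MaCon for Cd22 and Cr2.

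**Figure D2:**
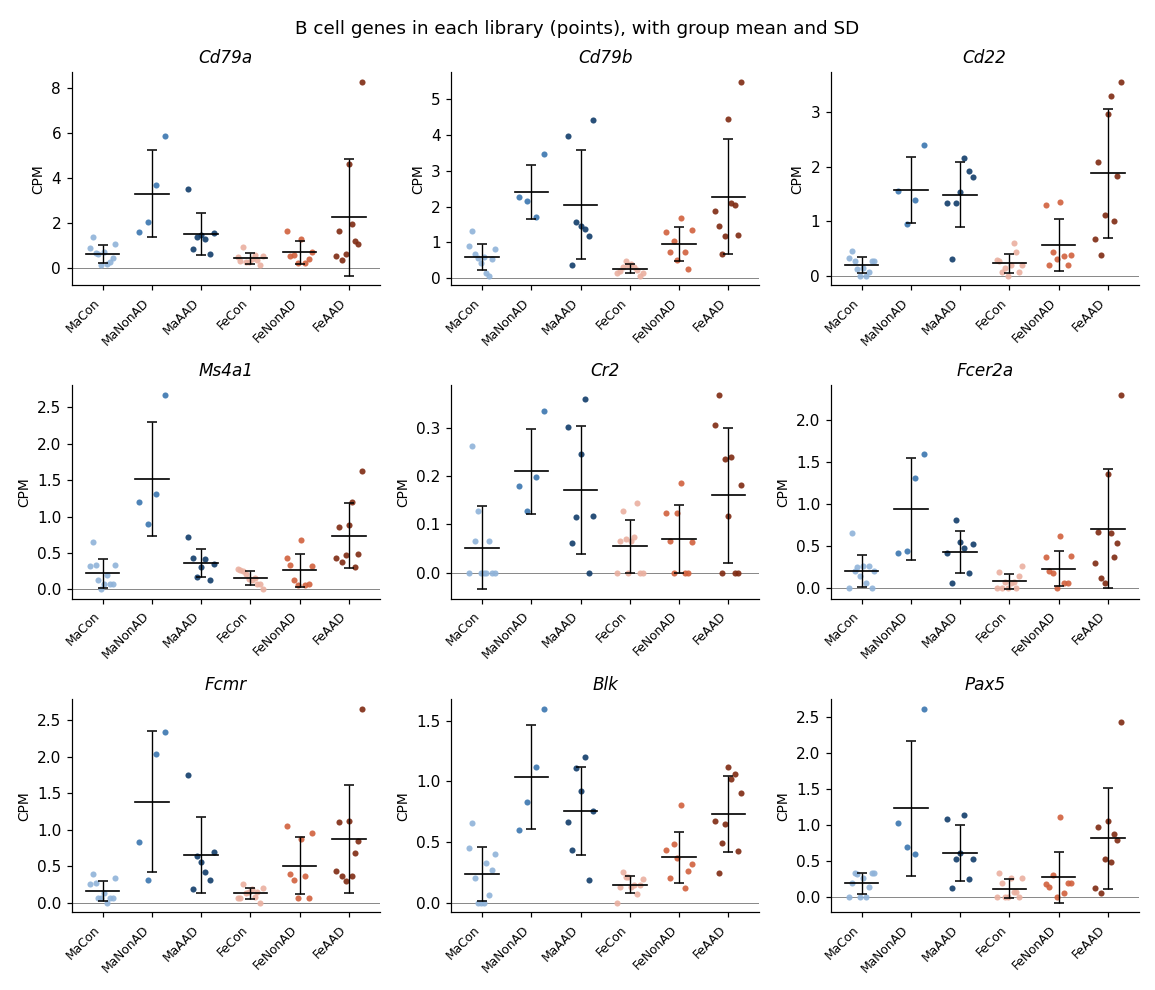
CPM of each of the 9 genes in each of the 48 libraries (points) by group, with the group mean (line) and SD (bars) on a linear axis. The 4 MaNonAD libraries of Ms4a1 lie above all MaCon, MaAAD and FeNonAD libraries, and FeAAD9 is the highest FeAAD library for 7 of the 9 genes.

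A single library was often the highest of its group for most of the genes. MaNonAD4 was the highest MaNonAD library for 9 of 9 genes, MaCon2 the highest MaCon library for 8, FeAAD9 the highest FeAAD library for 7 and FeNonAD5 the highest FeNonAD library for 7. Over all 48 libraries the 28 pairs among the 8 genes that could be tested had Pearson correlations of log2(CPM + 1) from 0.677 to 0.893, with a median of 0.79. After the mean of each group was taken away they ranged from 0.349 to 0.832, with a median of 0.647, so the genes also varied together between mice of 1 group. The points of these correlations share library, depth and tissue sample. In RNA from whole tissue, more B cells and more of these transcripts in each B cell cannot be told apart.

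BAPN aortas without a lesion were compared with controls to see what differed before or without dissection. In males, 7 of the 8 tested genes were higher in MaNonAD than in MaCon and passed the threshold for a differentially expressed gene (DEG), which needed an adjusted p below 0.05 together with a change of 1 or more on the log2 scale in either direction. In all, 0.381% of the 14431 tested genes were higher by this rule, which is 55 genes, and another 14 were lower. The log2 fold changes of the 8 genes ran from 1.99 for Cd79b to 3.00 for Fcmr, with a median of 2.48 against -0.02 over all tested genes. All 4 MaNonAD libraries lay above all 10 MaCon libraries for 5 genes, Ms4a1, Cd79a, Cd79b, Cd22 and Pax5, as did 0.617% of tested genes.

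Of the antigen receptor, Cd79a was at 1.62, 2.04, 3.68 and 5.88 CPM in MaNonAD1 to MaNonAD4, and in MaCon it ranged from 0.141 to 1.37 CPM with a median of 0.653. Cd79b was at 2.28, 2.16, 1.71 and 3.47 CPM in the same libraries, against 0.0668 to 1.31 in MaCon with a median of 0.586. For neither chain did the groups overlap. The log2 fold change was 2.34 (SE 0.53, adjusted p = 0.0205) for Cd79a and 1.99 (SE 0.47, adjusted p = 0.0268) for Cd79b by edgeR. Cd22, a sialic acid-binding inhibitor of the receptor, was at 1.56, 0.955, 1.38 and 2.4 CPM, against at most 0.458 in MaCon and a MaCon median of 0.2. It rose by 2.99 log2 units (SE 0.55, adjusted p = 0.00211), with no overlap.

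Ms4a1 encodes CD20, a surface protein of mature B cells. It was at 1.2, 0.891, 1.31 and 2.67 CPM in MaNonAD1 to MaNonAD4, which were 20, 14, 20 and 40 counts, and in MaCon it ranged from 0 to 0.654 CPM with a median of 0.162. Its log2 fold change of 2.75 (SE 0.50) had the smallest adjusted p of the 9 genes, 0.00147, and it ranked 13th of the 69 DEGs. Fcmr, the receptor for the Fc part of IgM, was at 0.838, 0.318, 2.04 and 2.34 CPM against 0 to 0.393 in MaCon. MaNonAD2 lay within the MaCon range, and the log2 fold change was 3.00 (SE 0.58, adjusted p = 0.00303).

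Blk, the kinase, was at 0.599, 0.828, 1.12 and 1.6 CPM against 0 to 0.654 in MaCon, with MaNonAD1 below MaCon2. Pax5 was at 1.02, 0.7, 0.591 and 2.61 CPM against 0 to 0.336, with no overlap. Both were DEGs, at log2 fold changes of 2.08 (SE 0.50, adjusted p = 0.03) and 2.63 (SE 0.67, adjusted p = 0.0498). Fcer2a, the low-affinity IgE receptor CD23, was at 0.419, 0.446, 1.31 and 1.6 CPM against 0 to 0.654 in MaCon, and 2 of its 4 MaNonAD values lay within the MaCon range. Its fitted log2 change was 2.15 (SE 0.65) and did not pass, with an adjusted p of 0.119.

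With so few mice, the number of DEGs among these genes in MaNonAD rested on single libraries. Pax5, whose adjusted p lay closest to the threshold, lost its call in 27 of 48 fits without a single library. The number was 3 without MaNonAD4 and 4 without MaNonAD1, MaNonAD3 or MaCon8, where Blk, Cd79b or Cd79a dropped out as well, and it was 4 when MaCon2, MaNonAD4 and FeAAD2 were left out together, a choice made after seeing the data. The red blood cell list was higher in the same mice, with sums of 687 to 5180 CPM in MaNonAD against 208 to 1400 in MaCon and a median log2 fold change of 2.11 over its 6 tested genes. By edgeR 0 of these were DEGs, 6 had an unadjusted p below 0.05, and 0 were DEGs by DESeq2. Without MaNonAD4 the median was 1.28 and 0 were at that level, and without FeAAD2, whose spread enters the same fit, 5 were DEGs. With the summed red blood cell level as a covariate, also a choice made after seeing the data, 4 of the 8 genes were DEGs, and the log2 fold change was 1.71 for Cd79b and 1.87 for Cd79a. The T cell list summed to between 20.4 and 47.7 CPM in MaNonAD and between 3.74 and 214 in MaCon, with a median log2 fold change of -0.03 over its 12 tested genes. By edgeR 0 of these were DEGs, 1 had an unadjusted p below 0.05, and 0 were DEGs by DESeq2. These T cell values rested on MaCon2. Without it the MaCon sums ended at 26.6 CPM and 3 of 4 MaNonAD libraries lay above them, and the T cell list had a median of 1.24, 12 of 12 genes positive, 8 with an unadjusted p below 0.05 and 1 DEG. The fat list was also positive for 8 of 8 genes in MaNonAD, with a median of 0.63, or 0.27 without MaNonAD2. The part of T cells, red blood cells and fat in the level of the B cell genes was not tested beyond these values.

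**Figure D3:**
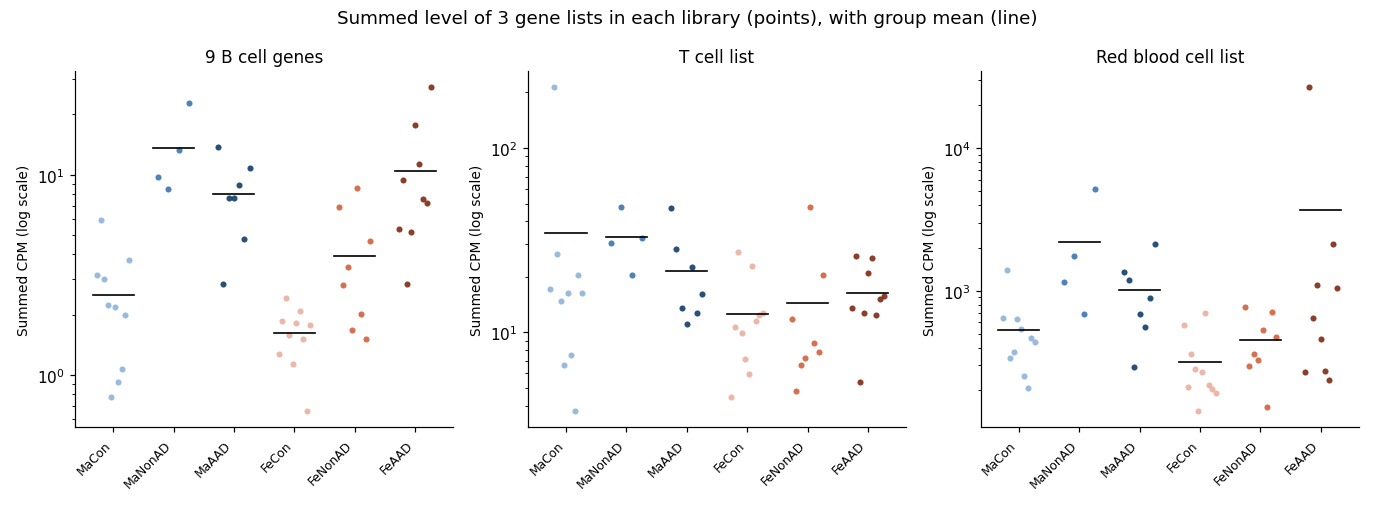
Summed CPM of the 9 B cell genes, the T cell list and the red blood cell list in each library (points) on log axes, with the group means (lines). The 4 MaNonAD libraries lie above every MaCon library for the B cell genes. For the T cell list MaCon2 lies above all 4 at 214 CPM, while 3 of the 4 lie above the other 9 MaCon libraries. MaCon2, MaNonAD4 and FeAAD2 carry the highest red blood cell sums of their groups.

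In females without a lesion fewer of the genes passed, and 2 of the 8 genes were DEGs in FeNonAD against FeCon, where 1.67% of tested genes were higher. Cd79b ranged from 0.262 to 1.67 CPM in FeNonAD with a median of 0.885, and from 0.0733 to 0.484 in FeCon with a median of 0.257. It rose by 1.83 log2 units (SE 0.45, adjusted p = 0.0052), and 7 of 8 FeNonAD libraries lay above all FeCon libraries. Fcmr ranged from 0.0619 to 1.05 CPM with a median of 0.383, against 0 to 0.253 and a median of 0.14 in FeCon, which was 1.91 on the log2 scale (SE 0.56, adjusted p = 0.0172). The groups overlapped for both genes, as for the other 6, and 0.367% of tested genes separated them with FeNonAD above.

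The other 6 genes were also higher on average in FeNonAD without passing the test. Their log2 fold changes were 1.43 for Fcer2a, 1.33 for Cd22, 1.27 for Blk, 1.11 for Pax5, 0.69 for Cd79a and 0.69 for Ms4a1, with adjusted p-values from 0.07 to 0.398. The lower of these rested on single libraries, since Pax5 was at 0.304 and Ms4a1 at 0.314 without FeNonAD5, and Cd79a at 0.388 without FeNonAD1. Ms4a1 was at a median of 0.22 CPM in FeNonAD and 0.145 in FeCon. FeNonAD5 stood at the top of the group for 7 genes, with a summed level of 8.6 CPM against a group median of 3.13, and it also had the highest T cell sum of its group, 47.7 CPM against a median of 8.27. The part of T cells in that library's level was not tested. DESeq2 named 4 of the genes as DEGs here, among 495 over the whole table, adding Cd22 at 1.35 and Blk at 1.31. Cd22 also passed by edgeR without FeCon7 and without FeNonAD7.

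Lesioned aortas were compared with controls for the established disease. In FeAAD all 8 tested genes were DEGs and higher than in FeCon, where 9.94% of tested genes were higher. The log2 fold changes ran from 2.17 for Ms4a1 to 3.09 for Cd79b, with a median of 2.66 against 0.00 over all tested genes, and the count stayed at 8 without any 1 library. All 9 FeAAD libraries lay above all 10 FeCon libraries for Ms4a1, Cd79b and Fcmr, as did 3.63% of tested genes.

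Cd79b ranged from 0.681 to 5.5 CPM in FeAAD with a median of 1.89, against 0.0733 to 0.484 in FeCon, and rose by 3.09 log2 units (SE 0.43, adjusted p = 1.57e-07). Cd79a ranged more widely, from 0.371 in FeAAD3 to 8.28 CPM in FeAAD9 with a median of 1.19, against 0.147 to 0.95 in FeCon. 6 of the 9 FeAAD libraries lay above all FeCon libraries, and the log2 fold change was 2.35 (SE 0.47, adjusted p = 6.77e-05). The lowest value of Cd79a was 1.769 when 1 library was left out and 1.269 over the other alternative settings. Cd22 ranged from 0.371 to 3.56 CPM with a median of 1.82, against 0 to 0.596 in FeCon, which was 3.03 on the log2 scale (SE 0.47, adjusted p = 1.19e-06). FeAAD3 was the 1 FeAAD library of Cd22 that lay within the FeCon range.

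Among the surface receptors, Ms4a1 ranged from 0.312 to 1.63 CPM in FeAAD with a median of 0.485, against 0 to 0.285 in FeCon, and rose by 2.17 log2 units (SE 0.46, adjusted p = 0.000151). Fcer2a ranged from 0.0588 to 2.3 CPM with a median of 0.545, against 0 to 0.262, and rose by 2.99 (SE 0.63, adjusted p = 0.00014). Fcmr ranged from 0.294 to 2.66 CPM with a median of 0.686, against 0 to 0.253, and rose by 2.68 (SE 0.53, adjusted p = 5.54e-05). FeAAD9 was highest for all 3 of these receptors, and only Fcer2a overlapped with FeCon.

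The kinase and the transcription factor moved in the same direction. Blk ranged from 0.244 to 1.12 CPM in FeAAD with a median of 0.672, against 0 to 0.253 in FeCon, which was 2.22 on the log2 scale (SE 0.45, adjusted p = 8.92e-05). Pax5 ranged from 0.0619 to 2.42 CPM with a median of 0.788, against 0 to 0.331, which was 2.65 on the log2 scale (SE 0.62, adjusted p = 0.00052). Most FeAAD libraries, 8 of 9 for Blk and 7 of 9 for Pax5, lay above all FeCon libraries. The 6 tested red blood cell genes were DEGs in the same comparison, with a median log2 fold change of 3.6, which was 1.32 with 5 DEGs without FeAAD2. The 8 B cell genes were all DEGs with the red blood cell sum as a covariate and without MaCon2, MaNonAD4 and FeAAD2.

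In MaAAD, 6 of the 8 genes were DEGs and higher than in MaCon, where 9.18% of tested genes were higher. The median log2 fold change was 1.63, and no gene had ranges that did not overlap, against 6.14% of tested genes with MaAAD above. Cd22 stood out with a range of 0.31 to 2.16 CPM in MaAAD and a median of 1.54, against 0 to 0.458 in MaCon. It rose by 2.90 log2 units (SE 0.50, adjusted p = 8.74e-06), beside 3.03 in FeAAD, and 6 of 7 MaAAD libraries lay above all MaCon libraries.

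Cd79b ranged from 0.372 to 4.43 CPM in MaAAD with a median of 1.47, and rose by 1.76 log2 units (SE 0.41, adjusted p = 0.000687). Cd79a ranged from 0.62 to 3.5 CPM with a median of 1.4, and rose by 1.24 (SE 0.48, adjusted p = 0.0397). MaAAD1 held the highest value of Cd79a by a wide gap, and without it the log2 fold change of Cd79a was 0.91 with an adjusted p of 0.144. The remaining DEGs were Fcmr at 1.93 (SE 0.54, adjusted p = 0.00436), Blk at 1.63 (SE 0.45, adjusted p = 0.00336) and Pax5 at 1.63 (SE 0.62, adjusted p = 0.0376). Pax5 lost its call without any of 7 single libraries, MaCon1, MaCon5, MaCon7, MaCon8, MaAAD1, MaAAD4 or MaAAD5, and Cd79a without any of 7, MaCon5, MaCon7, MaCon8, MaCon9, MaAAD1, MaAAD4 or MaAAD7.

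Ms4a1 and Fcer2a were the genes that did not pass in MaAAD. Ms4a1 ranged from 0.124 to 0.723 CPM with a median of 0.35, against a MaCon median of 0.162, and 1 of 7 libraries lay above all MaCon libraries. The difference on the log2 scale was 0.71 (SE 0.49, adjusted p = 0.27) and 0.469 without MaAAD1, and that of Fcer2a was 1.06 (SE 0.61, adjusted p = 0.175). MaCon2, the MaCon library with the outlying T cell sum, held 0.654 CPM of each, the highest MaCon value of both genes. When 1 library was left out, Ms4a1 reached up to 1.061 and Fcer2a ran from 0.865 to 1.446. Without MaCon2 all 8 genes had an unadjusted p below 0.05 by edgeR. Without MaCon2, MaNonAD4 and FeAAD2 the count of DEGs was 6, and with the red blood cell sum as a covariate it was 4.

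**Figure D4:**
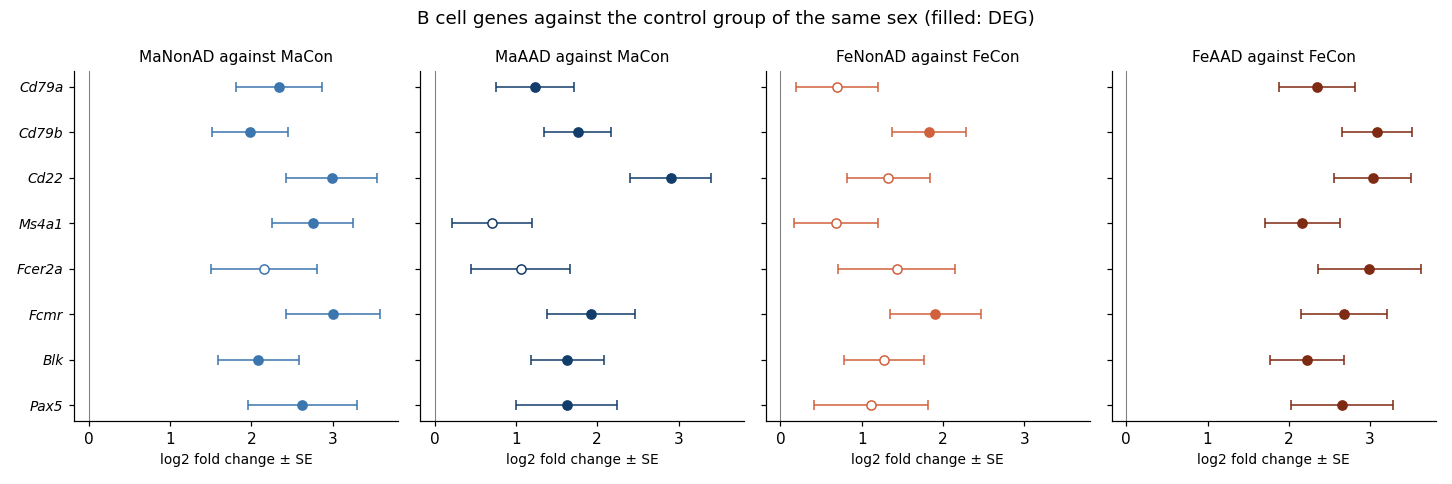
Log2 fold change with its SE (bars) of the 8 tested genes in 4 comparisons with the control group of the same sex, from edgeR, with DEGs filled. All 8 are filled in FeAAD, 7 in MaNonAD, 6 in MaAAD and 2 in FeNonAD, and every point lies to the right of 0.

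The step from no lesion to a lesion was compared within each sex. In females, 4 of the 8 genes were higher in FeAAD than in FeNonAD, namely Cd22, Cd79a, Ms4a1 and Cd79b, and 6.79% of tested genes were higher. Their log2 fold changes were 1.70 (SE 0.46, adjusted p = 0.00639), 1.65 (SE 0.48, adjusted p = 0.0124), 1.48 (SE 0.46, adjusted p = 0.0195) and 1.26 (SE 0.41, adjusted p = 0.0252). All 8 had a positive value, from 0.77 for Fcmr upwards, but none separated the groups, and 0.166% of tested genes did so with FeAAD above. Fcmr was at 0.348 without FeAAD9, 0.507 with the red blood cell sum as a covariate and 0.191 without FeAAD5 and FeAAD9, and Cd79a was at 1.075 without FeAAD9, while Pax5 went from 1.54 to 2.349 without FeNonAD5. Cd22, for example, had a median of 1.82 CPM in FeAAD and 0.375 in FeNonAD, and 5 of 9 FeAAD libraries lay above all FeNonAD libraries. Cd79b lost its call without FeNonAD4, FeNonAD7, FeAAD5 or FeAAD9. In the same comparison 5 of 6 red blood cell genes were DEGs with a median of 3.06, as were 9 of 12 macrophage genes with a median of 1.27. Without FeAAD2 the red blood cell list had 0 DEGs by edgeR, 0 genes at an unadjusted p below 0.05 and a median of 0.77, and without FeAAD5 the macrophage list had 6 DEGs. The count of B cell genes was 6 without FeNonAD5, FeAAD1 or FeAAD3, where Fcer2a and Pax5 passed, 1 without FeAAD9 and 0 without FeAAD5 and FeAAD9, where Cd79a had a log2 fold change of 0.58 and Cd22 of 1.36.

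In males, the same step had the opposite sign for all 8 genes, and 0 of them were DEGs by edgeR in MaAAD against MaNonAD, where 0.353% of tested genes were DEGs and 0 were lower. At an unadjusted p below 0.05 there was 1 gene, Ms4a1, against 6.36% of tested genes that were lower at that level. By DESeq2 it was the 1 DEG among these genes, where 513 were DEGs over the whole table. The median log2 fold change was -1.04 against 0.00 over all tested genes. Ms4a1 was at 0.891 to 2.67 CPM in MaNonAD and at 0.124 to 0.723 in MaAAD, so that every lesioned male lay below every unlesioned one, and 4.04% of tested genes separated these groups in either direction. Its log2 fold change was -2.04 (SE 0.52) with an adjusted p of 0.0502, just short of the threshold, and it passed without any of 11 single libraries, MaNonAD1, MaAAD1, MaAAD2, MaAAD4, FeCon10, FeNonAD8, FeAAD3, FeAAD4, FeAAD5, FeAAD8 or FeAAD9. Cd79a, Fcer2a and Fcmr had values of -1.10, -1.10 and -1.07, while Blk, Cd79b and Cd22 were at -0.45, -0.22 and -0.08. For Cd79b and Cd22 the sign turned when MaNonAD4 was left out, at 0.008 and 0.18, and without the same library Cd79a was at -0.661, Fcmr at -0.695, Pax5 at -0.336 and Blk at -0.174. Blk was at -0.284 without MaAAD6. Some other lists were lower in MaAAD as well, with medians of -1.19 and 0 of 6 genes positive for red blood cells, -0.94 and 1 of 10 for precursor B cells and thymocytes, -0.73 and 0 of 8 for fat, and -0.58 and 1 of 12 for T cells, while macrophages were at 1.23. Other B lineage genes, listed below, did not fall as a list, at a median of 0.25 with 11 of 18 positive. That median ran from -0.01 to 0.3 when 1 library was left out. Genes that carry the receptor signal were at 1.04 with 19 of 21 positive and 2 DEGs, or 0 to 10 DEGs when 1 library was left out. Without MaNonAD4 the red blood cell median was -0.25. The fat median was -0.21 without MaNonAD2 and -1.44, with 5 DEGs, without MaAAD1, and the T cell median was -0.31 without MaNonAD2 and -0.92 without MaAAD1. Without MaCon2, MaNonAD4 and FeAAD2 the median of the B cell genes was -0.50, with 6 of 8 negative.

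Whether this step differed between the sexes was tested as an interaction. The log2 difference, male minus female, was negative for all 8 genes, with a median of -2.19 against -0.01 over all tested genes. It was -3.52 (SE 0.70) for Ms4a1, -2.75 (SE 0.74) for Cd79a, -2.66 (SE 0.88) for Fcer2a and -2.54 (SE 0.90) for Pax5, and the other genes lay between -1.40 and -1.84. None of the 14431 tested genes was a DEG by edgeR, 0.0% of them, and the smallest adjusted p among the 8 genes was 0.102, for Ms4a1. At an unadjusted p below 0.05 and a negative difference there were 8 of 8, against 0.658% of tested genes. Other lists moved with them. The red blood cell list had a median of -4.21 with 6 of 6 genes negative and at an unadjusted p below 0.05, which was -1.94 with 5 at that level without FeAAD2 and -1.01 with 0 without MaCon2, MaNonAD4 and FeAAD2. The T cell list had a median of -0.66 with 0 of 12 genes positive, or -1.27 without FeNonAD5. With the red blood cell sum as a covariate the 8 B cell genes stayed negative with a median of -1.82, and 5 had an unadjusted p below 0.05, while without MaCon2, MaNonAD4 and FeAAD2 the median was -1.67 and 3 did. DESeq2 named 1 gene over the whole table, which was Ms4a1 at -3.57, and Ms4a1 also passed by edgeR without MaAAD1 and without FeNonAD5.

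The 2 other interactions had no DEG among the 8 genes by edgeR or by DESeq2. For the response of NonAD against Con the difference was positive for all 8 genes, with a median of 1.302, and 3 had an unadjusted p below 0.05. Among all tested genes, 0.298% were DEGs of this interaction and 5.5% were positive at that level. With the red blood cell sum as a covariate 7 of 8 were positive and 1 had an unadjusted p below 0.05, and without MaCon2, MaNonAD4 and FeAAD2 the median was 0.9, also with 1 at that level. The red blood cell list was positive for 6 of 6 genes here, with a median of 1.5, or 0.66 without MaNonAD4. The T cell list was at 0.05 with 7 of 12 genes positive, and without MaCon2 at 0.91 with 12 of 12, while the precursor B cell and thymocyte list went from -0.28 to 0.7 with 9 of 10 positive. For the response of AAD against Con it was negative for all 8, with a median of -1.07, 3 had an unadjusted p below 0.05, 0.52% of all tested genes were DEGs and 7.81% were negative at that level. Without MaCon2 alone 1 gene was positive and 0 were at that level, as were 0 without MaCon2, MaNonAD4 and FeAAD2, and with the covariate 7 were negative and 1 was at that level. Without FeAAD9 the median of the 8 genes was -0.58. The red blood cell list had a median of -2.69 here, with 0 of 6 genes positive and 5 at that level, but -0.41 with 0 at that level without FeAAD2. The T cell list was at -0.95 with 2 of 12 genes positive, and at 0.33 without MaCon2. The precursor B cell and thymocyte list was at -0.82 with 1 of 10 positive, and at 0.29 without MaCon2. The part of these cells in the differences was not tested further. The 3 interactions share libraries with each other and with the pairwise comparisons.

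**Figure D5:**
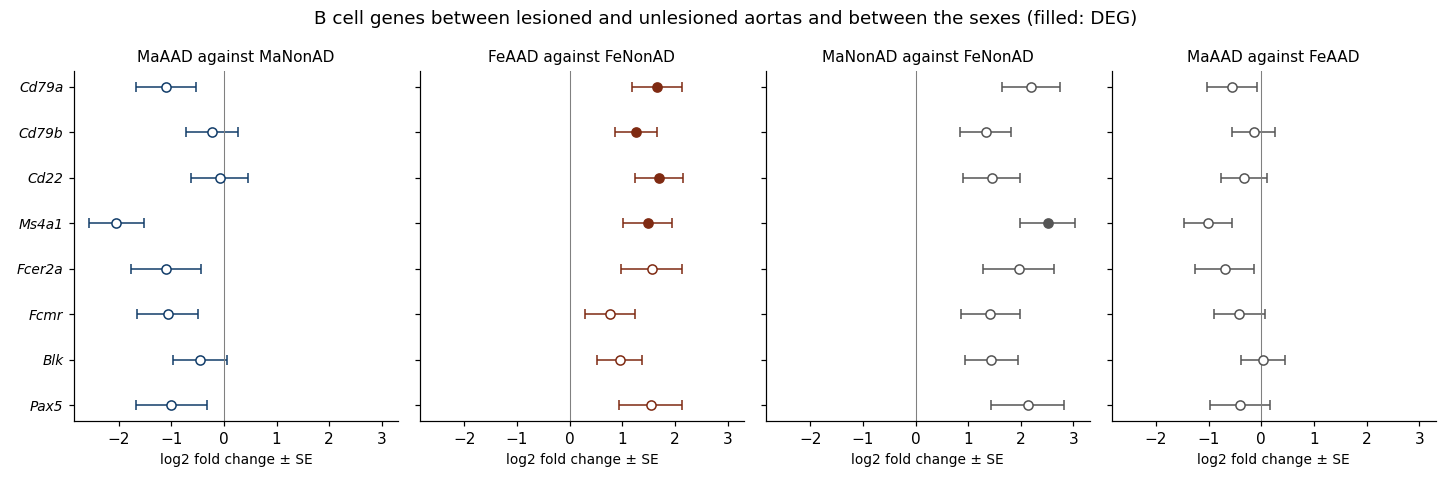
Log2 fold change with its SE (bars) of the 8 tested genes from NonAD to AAD in each sex, and between males and females in NonAD and in AAD, from edgeR with DEGs filled. All points of the male step lie left of 0 and all points of the female step right of it, and Ms4a1 is the filled point between MaNonAD and FeNonAD.

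Direct comparisons between the sexes gave 1 DEG among these genes. Ms4a1 was higher in MaNonAD than in FeNonAD by 2.51 log2 units (SE 0.52, adjusted p = 0.0274). It was at 0.891 to 2.67 CPM in the 4 males and at 0.0612 to 0.681 CPM in the 8 females, with no overlap. It was 1 of 7 DEGs over the whole table, 6 of them higher (0.0416% of tested genes), and the others were Eif2s3y, Uty, Ddx3y and Kdm5d, which lie on the Y chromosome, Kdm6a, which escapes X inactivation, and Alox15. Cd79b also separated the groups, at 1.71 to 3.47 against 0.262 to 1.67 CPM, as did 0.34% of tested genes with males above. The other 7 genes had log2 fold changes from 1.34 to 2.20 and did not pass, with adjusted p-values of 0.31 for Cd79a and 0.72 for the rest. At an unadjusted p below 0.05 and higher in males there were 8 of 8 against 2.71% of tested genes, and 5 of 8 without MaCon2, MaNonAD4 and FeAAD2. In the same comparison the T cell list was positive for 12 of 12 genes (median 1.18, 3 at that level and 6 without MaCon2), the red blood cell list for 6 of 6 (median 2.3, 5 at that level) the precursor B cell and thymocyte list for 9 of 10 (median 1.32, 1 at that level) and the fat list for 8 of 8 (median 0.56, 1 at that level). Without MaNonAD4 the red blood cell median was 1.4 with 0 at that level, and the fat median was 0.14 without MaNonAD2 and the thymocyte median 2.14 without FeNonAD5.

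The call of Ms4a1 between MaNonAD and FeNonAD was lost without any of 6 single libraries, MaNonAD3, MaNonAD4, FeNonAD3, FeNonAD4, FeNonAD6 or FeNonAD7, and with the red blood cell sum as a covariate, where the log2 fold change was 2.02. It was also lost without MaCon2, MaNonAD4 and FeAAD2, at 2.09 and an adjusted p of 0.358. Between MaCon and FeCon 0 of the 8 genes were DEGs by edgeR or DESeq2, against 1.51% of tested genes, with 1 at an unadjusted p below 0.05, where 14.2% of tested genes were higher in MaCon. That gene was Cd79b, at medians of 0.586 and 0.257 CPM, a log2 fold change of 1.18 (SE 0.45) and an adjusted p of 0.0679. It was a DEG without MaCon7 or without MaCon8. The T cell list had 5 DEGs of 12 in this comparison, Cd3g, Cd247, Lck, Cd2 and Cd8a, all higher in MaCon, but without MaCon2 there were 0 by edgeR, with 0 at an unadjusted p below 0.05 and a median of 0.19 in place of 1.21. Between MaAAD and FeAAD 0 of the 8 were DEGs by edgeR or DESeq2, against 0.0693% of tested genes, and the 1 gene at an unadjusted p below 0.05 was Ms4a1 at -1.01 (SE 0.46, adjusted p = 1), where 1.0% of tested genes were lower in MaAAD.

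Cr2, the receptor for complement fragments that makes B cells easier to activate and also marks follicular dendritic cells, was too scarce for the test. It had at most 6 counts in any library, and the numbers of libraries at 0 were 6 of 10 in MaCon, 4 of 10 in FeCon, 3 of 8 in FeNonAD, 1 of 7 in MaAAD and 3 of 9 in FeAAD. The 4 MaNonAD libraries had 3, 2, 3 and 5 counts, or 0.18, 0.127, 0.197 and 0.334 CPM. No group therefore had a clear level above the 3 counts taken as a floor. In a fit without a filter on low counts its fitted log2 change was 1.85 (SE 0.79, adjusted p = 0.37) in MaNonAD against MaCon, 1.58 (SE 0.70, adjusted p = 0.0899) in MaAAD against MaCon and 1.43 (SE 0.67, adjusted p = 0.0954) in FeAAD against FeCon.

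Other genes of B cells moved in the lesioned groups, as did genes of many immune cells. Of 18 tested genes of a list of other B lineage genes, 14 rose in FeAAD, 10 in MaAAD, 3 in FeNonAD and 4 in MaNonAD against the controls of their sex, the last of which ran from 0 without MaCon8 to 7 without MaCon2 when 1 library was left out. The 4 in MaNonAD were Pou2af1, a coactivator of octamer factors, at 2.67 (SE 0.63, adjusted p = 0.0268), Siglecg, a receptor related to Cd22, at 2.26 (SE 0.54, adjusted p = 0.0306), Cd72 at 2.07 (SE 0.51, adjusted p = 0.0378) and H2-Ob at 1.98 (SE 0.47, adjusted p = 0.0287). In FeNonAD they were Cd72, Ciita and H2-Ob. Cd72, Pou2f2, Tnfrsf13b and Ciita had the smallest adjusted p-values in lesioned aortas, with log2 fold changes in FeAAD of 4.01, 2.26, 3.18 and 2.84. After the group means were taken away, their Spearman correlations with the summed level of the 9 genes were 0.263, 0.414, 0.559 and 0.358. Those of Spib and Pou2af1 were 0.816 and 0.774. The part of other cells in the rise of Cd72, Pou2f2, Tnfrsf13b and Ciita was not tested. Ebf1, a factor of the B lineage that is also known from fat and mural cells, was at a mean of 51.0 CPM over all libraries. This was above each of the 9 genes in any library. Its Spearman correlation with the summed level of the 9 genes was -0.276, and it was not a DEG in lesioned aortas.

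Of 21 genes that carry the signal of the B cell receptor, 15 rose in FeAAD and 14 in MaAAD. In MaNonAD 0 were DEGs by edgeR and by DESeq2, with 7 at an unadjusted p below 0.05, and in FeNonAD 0 were by edgeR and 1 by DESeq2, with 8 at that level. Without MaCon2 there was 1 DEG in MaNonAD by edgeR, with 13 at that level, and 1 in FeNonAD, with 9. Blnk, an adaptor, rose by 2.18 in FeAAD and 2.10 in MaAAD, Pik3ap1 by 2.49 and 2.83, Plcg2 by 1.33 and 1.39 and Inpp5d, an inhibitory phosphatase, by 1.72 and 2.06. Many of these are used by macrophages as well, whose list of 12 had 10 DEGs in FeAAD and in MaAAD, all higher. In MaNonAD 0 of the 12 genes of the macrophage list were DEGs by edgeR or DESeq2, with 11 positive and 7 at an unadjusted p below 0.05. In FeNonAD 0 of them were DEGs, with 2 at that level. Macrophage genes outside this list were not counted. The sum of the macrophage list was between 766 and 1110 CPM in MaNonAD, between 489 and 825 in MaCon and between 1140 and 4370 in MaAAD. The medians of log2 fold change in MaNonAD were 2.48 for the 8 tested genes, 0.68 for the signalling genes and 0.72 for macrophages. The list of other B lineage genes was at 1.64, with 16 of 18 positive.

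Antibody-secreting cells have their own genes. Of 9 tested plasma cell genes 2 rose in FeAAD and in MaAAD, Prdm1 by 2.27 and 2.41 and Sdc1 by 1.22 and 1.16. Of a list of 13 immunoglobulin and associated genes only Jchain was found by name and analysed here. It was not a DEG, at 1.80 (SE 0.79, adjusted p = 0.0595) in FeAAD and 1.37 (SE 0.85, adjusted p = 0.563) in MaNonAD. In FeAAD it ran from 1.32 without FeAAD6 to 2.17 without FeCon2, and it was a DEG without MaAAD1. In single libraries, FeAAD9, with the highest summed level of 27.4 CPM, held 0.0604 CPM of Jchain, and MaAAD1 held 3.19.

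Of 13 tested genes that attract B cells or keep them alive, 6 rose in FeAAD, 7 in MaAAD and 2, Cxcl13 and Il6, in FeNonAD. The chemokine Cxcl12 rose by 1.58 in FeAAD and 1.65 in MaAAD, its receptor Cxcr4 by 2.56 and 1.63, and Il6 by 6.26 and 6.25. Cxcl13, which draws B cells into follicles, rose in FeNonAD by 3.18 (SE 0.93, adjusted p = 0.0169). Its mean there of 1.98 CPM had an SD of 4.78, larger than the mean, so the rise was not shared evenly by the libraries. Without FeNonAD6 this list had 1 DEG in FeNonAD in place of 2. In MaNonAD Cxcl13 had a mean of 2.77 CPM and an SD of 4.47. The T cell list had 1 DEG of 12 in FeAAD and in MaAAD, Il7r. Its median in MaAAD was -0.34 with 2 of 12 genes positive and 1 at an unadjusted p below 0.05, and without MaCon2 it turned to 0.58 with 10 positive and 6 at that level, so that T cell genes were then higher beside the B cell genes. Of the 10 tested genes of precursor B cells and thymocytes, Vpreb2 was the 1 DEG in FeAAD (lower) and in MaAAD (higher), and it was listed at 0 in 35 of 48 libraries.

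The remaining lists describe what else the samples held. Among 9 dendritic cell genes 4 rose in FeAAD, 4 rose and 1 fell in MaAAD and 2 rose in FeNonAD, and without MaCon2 the one that fell was no longer a DEG. Among 6 genes of follicular dendritic cells and high endothelial venules 1 rose in FeAAD and 1 in FeNonAD, and among 6 of lymphatic vessels 1, Pdpn, rose in FeAAD and in MaAAD. The fat list had 1 DEG of 8, Lep, lower in FeAAD. Its sum was highest in MaAAD1, at 6910 CPM against a MaAAD median of 1100, which is also the MaAAD library with the most B cell transcripts, 13.7 CPM. MaAAD1 also had the highest T cell sum of its group, 47.3 CPM against a median of 16.1, and the highest precursor B cell and thymocyte sum, 130 against 35.3. Without MaAAD1 Cd79a was not a DEG in MaAAD, and the part of these other cells in its B cell level was not tested. Of 10 heart muscle genes 5 fell in FeAAD, with 2 DEGs without FeCon10, and of 8 smooth muscle genes 5 fell in FeAAD and 5 in MaAAD, with 3 in MaAAD without MaAAD1.

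Among the genes most like the summed level of the 9 over all 48 libraries, by Spearman correlation, were Rasal3 (0.894), Spib (0.888), Siglecg (0.883), Gimap3 (0.878), Rac2 (0.859), Traf3ip3 (0.851), Itgb7 (0.85), H2-Ob (0.84) and Cd37 (0.84). The correlations include the differences between groups. After the group means were taken away, the closest included Spib (0.816), Pou2af1 (0.774), Siglecg (0.767) and Ltb (0.741).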

How the data were processed

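Strand-specific mRNA libraries from thoracic aorta were sequenced on a DNA NanoBall platform. The authors deposited estimated counts per gene, which the submitters' notes credit to Bowtie2 and RSEM 1.3.1 on GRCm39. Of these expected counts 4.99% were not whole, none of them of the 9 genes, and all were rounded. Counting without molecular identifiers means that floors cover counting error only.

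Groups came from the sample labels. After filterByExpr, 14431 genes were tested in 1 fit of 48 libraries with 6 group means by edgeR 4.0.16 (TMM factors 0.874 to 1.08, robust quasi-likelihood test, Benjamini-Hochberg adjustment, R 4.3.3). SEs are approximate, from the F statistic. Summaries used Python 3.11.15 and pandas 2.3.3. The 9 genes, the gene lists and the tests were chosen with earlier results of these data known. By rule, all 9 genes are named, from each other list up to 4 DEGs of lesioned aortas with the smallest adjusted p (or the highest level), and the 10 and 5 genes most alike, some of which are not reported here. Other genes were named after their values were seen. Alternatives were DESeq2 1.42.0, its size factors, no filter, no robust estimation, adjusted p alone, a replicate block, compared groups only and leaving out each library. Of the immunoglobulin list only Jchain was found by name, and the others were not analysed here.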

Additional observations from a re-analysis of the deposited data

Results flagged for a closer look

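Each of the 9 genes was examined in each of the 6 groups for a library far from the others by Dixon's test, and 8 of 54 such groups had one. Chance gives about 1 in 20 for independent normal values, and these low counts are skewed and bounded at 0 and share libraries, so the 8 cannot be read against that rate. In MaCon the library was MaCon2 for 3 genes, Ms4a1 at 0.654 CPM with the next library at 0.336, Fcer2a at 0.654 with the next at 0.267, and Cr2 at 0.262 with the next at 0.127. MaCon2 also held the highest T cell and thymocyte sums of its group. In MaAAD it was MaAAD1 for Cd79a at 3.5 CPM with the next at 1.57, and for Fcmr at 1.75 with the next at 0.699. In FeNonAD it was FeNonAD5 for Pax5, at 1.11 CPM with the next at 0.305. In FeAAD it was FeAAD9 for Pax5 at 2.42 CPM with the next at 1.06, and for Fcmr at 2.66 with the next at 1.12. All 8 values were the highest of their group.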

How the results depend on the processing

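The 8 DEGs of FeAAD against FeCon held in every alternative but the fit of the compared groups only, where the filter on low counts left 1 of the 8 genes to be tested and that 1 was a DEG. In the same setting 2 of 2 tested genes were DEGs in MaAAD against MaCon, 4 of 5 in MaNonAD against MaCon, 1 of 4 in FeAAD against FeNonAD and 0 of 7 in MaNonAD against FeNonAD, and 0 genes were left to test in FeNonAD or MaCon against FeCon. DESeq2 gave 4 DEGs in FeNonAD against FeCon, 1 in MaAAD against MaNonAD and 1 for the interaction of that step. Over the whole table it gave 495, 513 and 1. The step from MaNonAD to MaAAD gave 1 with DESeq2's size factors and 1 without robust estimation, among 168 and 99 over all tested genes.

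The deviations of same-numbered libraries from their group means had mean correlations from -0.228 to 0.16 over the 15 pairs of groups. Single pairs of libraries reached up to 0.472. Whether the numbers mark a pairing or a batch was not tested beyond a fit with the number as a block. With the replicate number as a block 4 genes were DEGs in MaNonAD against MaCon, 2 in FeAAD against FeNonAD and 0 in MaNonAD against FeNonAD.

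Of the settings added after seeing the data, leaving out MaCon2, MaNonAD4 and FeAAD2 gave 4 DEGs in MaNonAD against MaCon and 0 in MaNonAD against FeNonAD, with Cd79b at 0.004 and Cd22 at 0.19 in MaAAD against MaNonAD, where they had been negative. The red blood cell covariate gave 4 and 0 for the same comparisons and Cd22 at 0.12 for MaAAD against MaNonAD. Without FeAAD5 and FeAAD9 there were 0 DEGs in FeAAD against FeNonAD, 1 in MaAAD against MaNonAD, 1 in MaCon against FeCon and 2 in MaNonAD against FeNonAD. Over all tested genes these comparisons had 612, 601, 238 and 10 DEGs in that setting.

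Leaving out each of 48 libraries in turn gave 8 to 8 DEGs in FeAAD against FeCon, 4 to 6 in MaAAD against MaCon, 2 to 3 in FeNonAD against FeCon, 3 to 7 in MaNonAD against MaCon, 1 to 6 in FeAAD against FeNonAD, 0 to 1 in MaAAD against MaNonAD, 0 to 1 in MaCon against FeCon, 0 to 1 in MaNonAD against FeNonAD and 0 to 1 for the interaction of the step from NonAD to AAD, and 0 in the remaining comparisons. In MaAAD against MaNonAD, Cd79b ranged from -0.532 to 0.008 and turned positive without MaNonAD4, and Cd22 ranged from -0.256 to 0.184 and turned positive without MaNonAD4 and, at 0.095, without MaAAD2. Over 64 fold changes of single genes, 2979 of 3072 such fits kept direction and side of the threshold. Many of these fits left out a library of a group outside the comparison, where little can move. The total is therefore not a measure of how firmly single calls held.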
